A study of Mus musculus with 20 samples.

Results

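The 48 genes described here act in DNA replication and cell division, and their transcripts were followed across the leukocytes of the mouse eye. They were taken as a list of gene names, and each was found in both deposited count tables of annotated wells, among 21913 genes seen in those wells. By role they comprised 10 core S-phase genes (Pcna, Mcm2 to Mcm7, Rrm1, Rrm2 and Tyms), 5 further replication genes (Lig1, Hells, Uhrf1, Tk1 and Dut), 29 mitotic genes and 4 genes that resting cells also express (Stmn1, Hmgb2, H2afz and Tubb5).

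A dividing cell copies its DNA in S phase and separates the copies in mitosis. The Mcm proteins open the double helix, Pcna clamps the polymerase onto it, and the Rrm subunits and Tyms supply nucleotides. Cdk1 and its cyclins then drive entry into mitosis, topoisomerase and condensin prepare the chromosomes, and kinetochore and spindle proteins pull them apart. Microglia, the resident macrophages of the retina, seldom divide in healthy adult tissue and can proliferate after injury.

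CD45+ cells, which are leukocytes, were stained for CD45 and CD11b and sorted from eyes of C57BL/6 mice aged 8 weeks, housed free of specific pathogens, into 384-well plates. Transcripts were counted by molecular identifiers with the mCEL-Seq2 protocol in 20 libraries of 192 wells. The 5 groups of 4 libraries were unlesioned retina (the control), retina at day 3 and at day 7 after laser lesioning (labelled CNV, choroidal neovascularization), cornea and ciliary body. About 6 mice in 3 experiments were used, and the labels do not tie a library to a mouse. No lesioned cornea or ciliary body was compared here. Libraries whose titles share a prefix (P1 to P5) form a pair, each group has 2 pairs, and the pair was the replicate throughout, so that a p-value measures the spread between pairs, which may be technical.

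Mitotic genes are known to be switched on through CCAAT boxes, the site of NF-Y, and through the CHR element TTTGAA, the site of the MuvB complex, whereas many S-phase genes carry E2F sites. The 250 bases before the start of 3 mitotic genes and of 1 S-phase gene are shown because both kinds of gene are compared in the results. The sequences are from RefSeq on GRCm38.p6, 5′ to 3′ on the gene's own strand. Capitals mark the CCAAT box, the CHR element TTTGAA and E2F-type letters (TTCCCGC or TTCGCGC or TTGCCGC or TTGGCGC) on either strand. On the opposite strand CCAAT reads ATTGG and TTTGAA reads TTCAAA, and neighbouring matches to the E2F-type letters can overlap in 1 run of capitals. Top2a (topoisomerase II alpha, which untangles DNA) lies on the minus strand at chr11:99024190-99024439, Cdk1 (the mitotic kinase) on the minus strand at chr10:69352913-69353162, Mki67 (the Ki-67 protein of the chromosome surface) on the minus strand at chr7:135716380-135716629, and Mcm6 (a helicase subunit) on the minus strand at chr1:128359706-128359955.
Top2a: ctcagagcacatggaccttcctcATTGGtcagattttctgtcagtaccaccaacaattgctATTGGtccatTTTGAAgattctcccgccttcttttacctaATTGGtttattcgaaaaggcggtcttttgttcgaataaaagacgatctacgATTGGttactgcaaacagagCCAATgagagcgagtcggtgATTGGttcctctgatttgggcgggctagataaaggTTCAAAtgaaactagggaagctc
Cdk1: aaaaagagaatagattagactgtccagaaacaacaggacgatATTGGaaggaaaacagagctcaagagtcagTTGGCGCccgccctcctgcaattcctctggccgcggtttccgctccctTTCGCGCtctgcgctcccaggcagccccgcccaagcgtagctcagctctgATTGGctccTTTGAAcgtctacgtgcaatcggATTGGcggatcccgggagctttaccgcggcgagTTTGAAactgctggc
Mki67: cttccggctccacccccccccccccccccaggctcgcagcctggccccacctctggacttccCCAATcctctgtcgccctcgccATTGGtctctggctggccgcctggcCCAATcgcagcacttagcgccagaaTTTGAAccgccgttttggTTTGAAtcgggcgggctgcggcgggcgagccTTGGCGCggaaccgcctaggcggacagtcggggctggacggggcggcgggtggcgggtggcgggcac
Mcm6: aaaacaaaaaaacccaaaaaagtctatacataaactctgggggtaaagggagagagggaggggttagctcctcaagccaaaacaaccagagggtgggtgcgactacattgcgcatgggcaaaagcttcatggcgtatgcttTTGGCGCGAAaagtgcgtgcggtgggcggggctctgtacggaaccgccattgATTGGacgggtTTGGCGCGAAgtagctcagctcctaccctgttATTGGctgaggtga

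The Top2a sequence held 6 CCAAT and 2 TTTGAA matches and no E2F-type match. Cdk1 and Mki67 held 3 CCAAT and 2 TTTGAA matches each, with 2 and 1 E2F-type matches. Mcm6 held 2 CCAAT and 4 E2F-type matches and no TTTGAA. Over windows of 300 bases (250 before to 50 after the start), 41 of the 48 genes had an entry in the RefSeq table, and CCAAT and TTTGAA occurred together in 18 of 25 mitotic genes (72%), in 1 of 9 core S-phase genes (11.1%) and in 8.97% of 27025 genes. E2F-type letters occurred in 66.7% of the core S-phase genes, 12% of the mitotic genes and 10.9% of all genes. In the same order CCAAT, with or without TTTGAA, occurred in 88.9%, 88% and 41.1%, and TTTGAA in 11.1%, 72% and 20.2%. CCAAT was thus about as frequent in both sets of cycle genes, and TTTGAA set them apart. A match describes letters in this window only, not binding.

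The deposited annotation named 829 wells of the 3840, 111 of them in both tables, and sorted them into microglia, dendritic cells ("DCs"), macrophages and a joint class ("Monos/Lymphos/Granulos"). The joint class had 2 annotated wells in control retina and 5 in the cornea and was not compared there. Libraries held between 371329 and 3325825 transcripts. For microglia and dendritic cells the names matched the markers. The sum of 7 microglia markers was between 1.47% and 2.62% of transcripts in retinal microglia and at most 0.286% in the other classes. The 7 dendritic cell markers were highest in the dendritic class, at 0.138% to 0.242%. The 6 border macrophage markers overlapped between ciliary body macrophages (0.0303% to 0.077%) and the ciliary body joint class (0.0199% to 0.0441%). In corneal macrophages they summed to 0.0597% to 0.0804%. Wells outside the annotation in which photoreceptor markers were at least 5% of transcripts (125 wells) served as a background, because neurons do not divide.

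By the mean of 2 library pairs, retinal microglia at day 3 after the laser held the highest share of cell cycle transcripts of the classes compared. The 48 genes together were 1.07% and 0.683% of the transcripts of day 3 microglia in pairs P1 and P2 (0.874% ± 0.271, SD, n = 2). Control microglia held 0.207% and 0.131%, and those of day 7 held 0.154% and 0.206%. Library by library the groups did not overlap: the 4 day 3 libraries ranged from 0.606% to 1.35%, the 4 control libraries from 0.121% to 0.287% and the 4 day 7 libraries from 0.151% to 0.246%. In photoreceptor wells the share was 0.175% and 0.185%, and the pairs of control and day 7 microglia lay on both sides of it. Without the 4 broadly expressed genes, photoreceptor wells held 0.061% and 0.0666%, control microglia 0.1195% and 0.0625%, and day 7 microglia 0.0755% and 0.1115%. Both day 7 pairs and control pair P1 then lay above the photoreceptor wells, and control pair P2 lay within their range.

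Dendritic cells held 0.587% and 0.377% at day 3 and 0.184% and 0.176% at day 7, and the 2 pairs of each day did not overlap. The joint class held 0.276% and 0.240% at day 3 and 0.493% and 0.870% at day 7, and its day 7 pair P2 was above that of day 3 microglia. As a mean over wells, which gives deep and shallow wells the same weight, the day 7 values were 0.413% and 0.434%, against 0.977% and 0.602% in day 3 microglia. Its 4 day 7 libraries were far apart, from 0.155% to 1.54% of transcripts, and 1 of them lay within the day 3 range of 0.132% to 0.314%. The library at 1.54% was the highest of all but held only 5 wells. Macrophages held 0.251% and 0.452% in the cornea and 0.329% and 0.345% in the ciliary body. Their single libraries were further apart than the pairs, from 0.181% to 0.536% in the cornea and from 0.165% to 0.527% in the ciliary body, where 2 of 4 (0.165% and 0.184%) lay within the range of control microglia. The joint class of the ciliary body held 0.229% and 0.211%. No p-value is given for these sums, and in sums over wells fewer cycling cells and fewer transcripts per cell cannot be told apart.

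**Figure D1:**
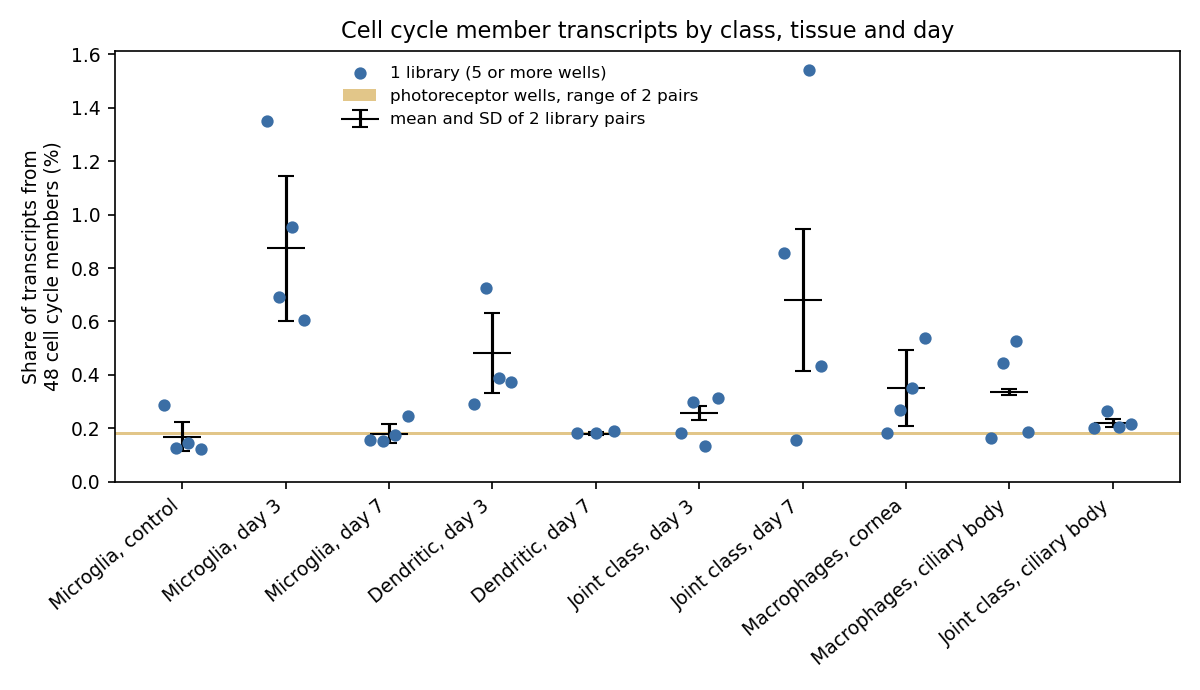
Share of transcripts from the 48 cell cycle genes (%, vertical axis) by class, tissue and day; each point is 1 library with at least 5 wells, the line and bar are the mean and SD of 2 library pairs, and the band is the range of 2 pairs of photoreceptor wells. The 4 libraries of day 3 microglia lie above those of control and day 7 microglia. The day 7 joint class is spread from 0.155% to 1.54%, the highest point being a library of 5 wells.

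Which wells carried the transcripts was read after each well was thinned at random to 1000 transcripts, since median depth differed between classes (1579 transcripts in control microglia, 2742 at day 3 and 7465 in day 3 dendritic cells). Mitotic genes were concentrated in a minority of wells. Of 81 day 3 microglia wells, 24 held at least 5 of the 29 mitotic genes (29.6%, Wilson 95% interval 20.8% to 40.3%), 14 of 30 in P1 and 10 of 51 in P2. The same was true of 1 of 120 control wells (0.833%, 0.147% to 4.57%) and 2 of 113 day 7 wells (1.77%, 0.487% to 6.22%). By single library the share ranged from 15.4% to 66.7% at day 3, wider than the interval, the highest being a library of 18 wells. In control libraries it was 0% to 5.88% and in those of day 7 0% to 9.09%. Among day 3 wells 39 held no mitotic gene at this depth, and 2 wells held exactly 4 and 2 exactly 5 of them.

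Outside microglia such wells were few. They were 5 of 82 dendritic wells at day 3 (6.1%, 2.63% to 13.5%) and 0 of 26 at day 7, which allows a share of up to 11.5%. The single dendritic libraries of day 3 ranged from 0% to 25%, the highest being a library of 12 wells. In the joint class such wells were 0 of 46 at day 3, which allows up to 6.52%, and 3 of 41 at day 7 (7.32%, 2.52% to 19.4%). Macrophages had 4 of 121 in the cornea and 2 of 111 in the ciliary body, and the ciliary body joint class 0 of 73, which allows up to 4.11%. Photoreceptor wells had 1 of 125 (0.8%, 0.141% to 4.39%) at a median depth of 4541 transcripts. The limit beside a count of 0 is 3 wells of the total, and the Wilson upper bounds of those 3 classes are wider, at 12.9%, 7.71% and 5.0%. Intervals and limits cover counting error only.

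Without thinning the shares were higher, at 39.5% in day 3 microglia, 1.67% in control microglia, 2.65% at day 7, 13.4% and 3.85% in dendritic cells at day 3 and day 7, 8.7% and 12.2% in the joint class at day 3 and day 7, 8.26% and 9.91% in macrophages of cornea and ciliary body, 4.11% in the ciliary body joint class and 12% in photoreceptor wells. Unthinned, the photoreceptor share was exceeded by day 3 microglia and, narrowly, by day 3 dendritic cells and the day 7 joint class. The other classes were under it, but depth was unequal here. Median depth was 4541 transcripts in photoreceptor wells, 1579 in control microglia, and 2718 and 5064 in macrophages of cornea and ciliary body. At equal depth these macrophages stood at 3.31% and 1.8%, against 0.8% in photoreceptor wells, and the Wilson intervals overlapped.

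**Figure D2:**
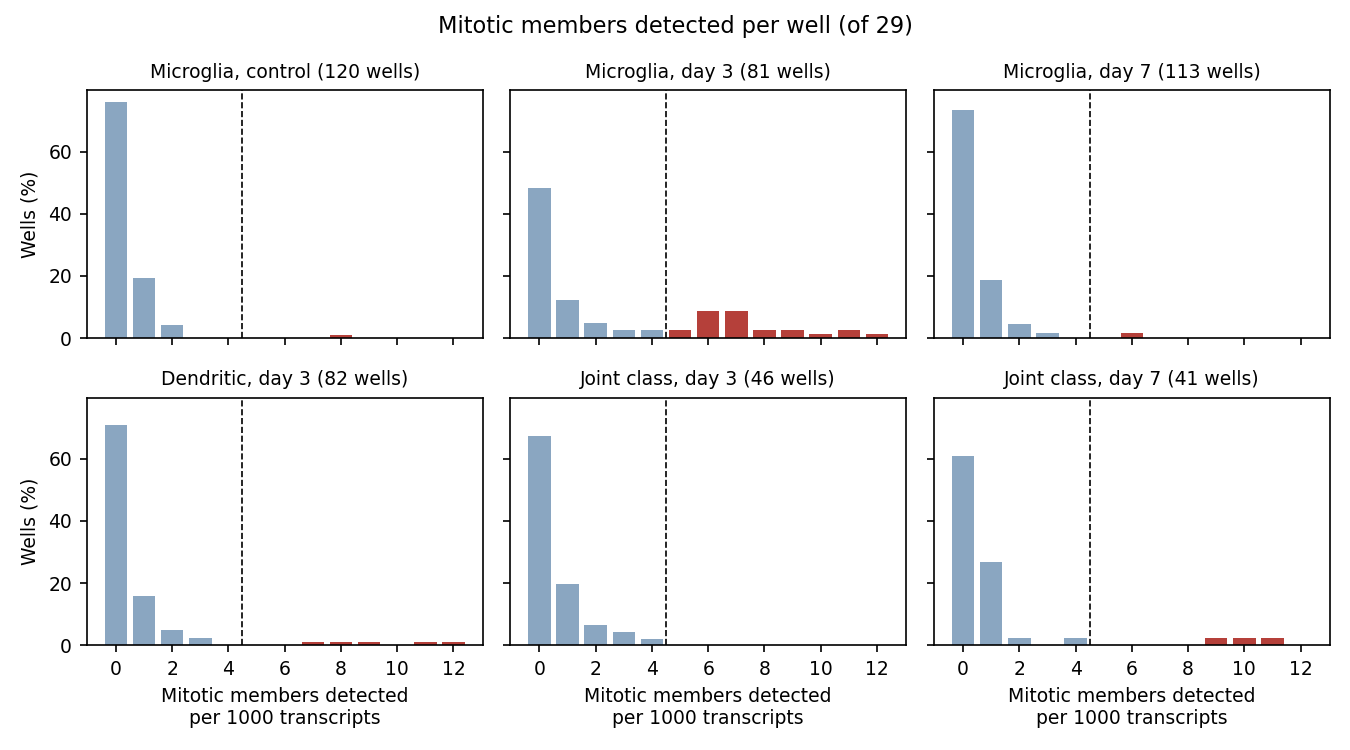
Percent of wells (vertical axis) by the number of the 29 mitotic genes detected per 1000 transcripts (horizontal axis) in 6 retinal classes; the dashed line marks the limit of 5, and wells at or above it are red. Day 3 microglia have 24 of 81 wells right of the line and 39 wells at 0, against 1 of 120 control wells and 2 of 113 day 7 wells right of it.

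The 24 mitotic wells of day 3 microglia were at a median depth of 3044 transcripts, against 2641 in the other 57. They held 88.0% of the mitotic transcripts of the class and 37.5% of its core S-phase transcripts. The wells were chosen by their mitotic genes, which raises the first share, so the 2 shares do not compare the phases. Leaving these 24 wells out, the 48 genes were still 0.361% of transcripts in the rest of day 3 microglia, against 0.135% in control microglia and 0.158% at day 7 outside such wells. Without thinning, 32 day 3 wells, 2 control wells and 3 day 7 wells reached the limit. The wells left in thus included some that reached it unthinned, so these values do not describe cells outside the cycle. In the authors' clusters 14 of the 24 were in cluster 6 and 7 in cluster 5. Their summed microglia markers had a median of 1.21% of transcripts, against 1.77% in the other 57 wells, and the deposited second annotation, made from signatures, also named 16 of the 24 microglia, against 44 of 57. T cell, monocyte and dendritic cell markers had a median of 0 in both sets of wells. The same annotation gave the dendritic name to 3 of the 5 mitotic wells of day 3 dendritic cells and to 37 of the other 77.

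Gene by gene, microglia at day 3 were compared with control microglia (24 of the 48 genes passed the filter on low counts, and the rest had too few transcripts to be tested). Of these, 20 rose and none fell in edgeR's quasi-likelihood test with Benjamini-Hochberg adjustment over 3408 genes, where 11.9% of all genes tested were higher. A gene high in 1 group alone can pass the filter, so neither the 24 nor the genes tested in later comparisons stand for the 48. Without the filter 32 of 48 were higher, against 2.46% of 17840 genes. The count rested on the control pairs, being 31 without control pair P1 and 13 without control pair P2. The 24 tested genes comprised 4 of helicase and fork, 6 cyclins and partners, 1 of the kinase group, 4 of centromere and kinetochore, 1 of the spindle, 4 of chromosome structure and the 4 broadly expressed genes.

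Levels are given as CPM, the transcripts of a gene scaled to a sum of 1000000, for pairs P1 and P2 in this order. Among replication genes, Mcm6 had 0 and 13.6 CPM in the control pairs, 137 and 128 at day 3 and 26.0 and 26.5 at day 7. It rested on 2 control transcripts, with a ratio of 13.9 (exact 95% counting interval 3.63 to 119, adjusted p = 0.00197). Lig1, the ligase that joins the lagging strand, had 15.3 and 13.6 CPM in control, 164 and 87.0 at day 3, then 26.0 and 35.4 at day 7. Its ratio of day 3 to control was 7.99 (2.53 to 40.5, adjusted p = 0.00782). Both were higher in each day 3 pair than in each control pair. Mcm5, another helicase subunit, had no control transcript and was at least 6.7-fold higher (adjusted p = 0.00438). The other 6 genes of the helicase and fork group (Mcm2, Mcm3, Mcm4, Mcm7, Hells and Uhrf1) were not tested. They stood between 36.7 and 174 CPM in the day 3 pairs, and Mcm4 overlapped with control.

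Pcna was at 199 and 68.0 CPM in control, 384 and 188 at day 3, then 71.6 and 159 at day 7. Its groups overlapped, and its log2 fold change of 1.27 ± 0.51 (SE) did not pass (adjusted p = 0.0921). Of the nucleotide supply genes none passed the filter. Rrm2, the regulated subunit of ribonucleotide reductase, had no control transcript, 128 and 64.1 CPM at day 3 and 19.5 and 35.4 at day 7. Tyms, thymidylate synthase, overlapped between groups, with 76.6 and 54.4 CPM in control and 119 and 55.0 at day 3. Dut, which keeps uracil out of DNA, had 15.3 and 20.4 CPM in control and 45.7 and 41.2 at day 3. Rrm1 and Tk1, which also supply nucleotides, were at 146 and 68.7 and at 137 and 68.7 CPM at day 3.

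All 6 cyclins and Cdk partners were called higher. Cdk1 had no transcript in either control pair, 247 and 156 CPM at day 3 and 26.0 and 61.9 at day 7, at least 13.2-fold higher at day 3 than in control (adjusted p = 6.24e-05). Ccna2, the S and early mitotic cyclin, had 46.0 and 6.8 CPM in control, 228 and 105 at day 3, then 19.5 and 61.9 at day 7. Its day 3 change was 2.98 ± 0.75 on the log2 scale (adjusted p = 0.00598). Cks2, a small Cdk-binding protein, rose from 30.6 and 6.8 CPM to 155 and 105, with a ratio of 8.64 (2.75 to 43.7). The mitotic cyclin Ccnb1 and the Cdk-binding Cks1b had no control transcript and were at least 8.42-fold and 8.64-fold higher. Ccnb2 had 1 control transcript and a ratio of 27.9 (4.74 to 1126).

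Of the 8 genes of mitotic kinases, checkpoint and anaphase-promoting complex, Ube2c alone passed the filter. Ube2c, which hands ubiquitin to that complex, had 46.0 and 20.4 CPM in control, 402 and 293 at day 3, then 0 and 35.4 at day 7, a day 3 change of 3.56 ± 0.58 (adjusted p = 0.000219). Cdca3, a mitotic entry factor, and Bub1b, a spindle checkpoint kinase, had no control transcript. They reached 91.3 and 36.7 CPM, and 100.5 and 18.3 CPM, in the 2 day 3 pairs. Plk1, Aurka, Aurkb, Bub1 and Cdc20 were between 22.9 and 91.3 CPM in the day 3 pairs and were not tested.

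Of the kinetochore and passenger genes, Cenpa, the histone of the centromere, had 1 control transcript (15.3 and 0 CPM) and 219 and 128 CPM at day 3, a ratio of 33.7 (5.79 to 1356, adjusted p = 0.000951). Birc5 (survivin, of the passenger complex) had 30.6 and 0 CPM in control and 164 and 142 at day 3, a ratio of 15.9 (4.17 to 135, adjusted p = 0.00189). Both lay higher in each day 3 pair than in each control pair. Cenpf, a kinetochore protein, also did not overlap, at 76.6 and 40.8 against 164 and 105 CPM, but did not pass (1.30 ± 0.56, adjusted p = 0.0932). Cenpe, a kinetochore motor, was also called higher, while Cdca8 and Nuf2 were not tested.

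Of the 5 spindle genes only the motor Kif11 was tested. It was at 15.3 and 88.4 CPM in control and 164 and 64.1 at day 3, overlapping, with a change of 0.77 ± 0.70 (adjusted p = 0.387). Tpx2, which nucleates spindle microtubules, had 0 and 13.6 CPM in control and 164 and 59.6 at day 3. Kif23, a motor of the midbody, had none in control and 119 and 50.4 CPM at day 3. Tpx2, Kif23, Nusap1 and Prc1 were not tested.

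Of the 4 genes of chromosome structure 3 rose, the third being the condensin subunit Smc2. Top2a had 0 and 27.2 CPM in control, 448 and 339 at day 3, then 0 and 17.7 at day 7. Its day 3 change was 4.35 ± 0.59 (fold 20.3, adjusted p = 2.65e-05). Smc4, its partner in condensin, had 123 and 40.8 CPM in control, 466 and 261 at day 3, then 45.5 and 26.5 at day 7, a day 3 change of 2.37 ± 0.46 (adjusted p = 0.000954). Neither overlapped between day 3 and the other groups. Mki67 stood at 46.0 and 47.6 CPM in control, 685 and 215 at day 3, then 13 and 88.5 at day 7. Its groups did not overlap either, but the 2 day 3 pairs were far apart, and its change of 3.18 ± 1.0 did not pass (adjusted p = 0.0783).

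The 4 broadly expressed genes rose too. Stmn1, which destabilises microtubules, had 91.9 and 54.4 CPM in control, 511 and 431 at day 3, then 45.5 and 106 at day 7 (day 3 change 2.81 ± 0.40, adjusted p = 4.59e-05). Tubb5, a beta tubulin, went from 352 and 339.8 to 1141 and 1154 CPM (1.76 ± 0.23, adjusted p = 2.17e-05). H2afz, a histone variant, went from 199 and 169.9 to 739.7 and 568 CPM (1.86 ± 0.29), and Hmgb2, a chromatin protein, from 229.8 and 122 to 794.5 and 508.5 CPM (2.00 ± 0.34). Tubb5 and H2afz have close relatives in the genome, and how shared reads were counted is not given in the sources used here.

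**Figure D3:**
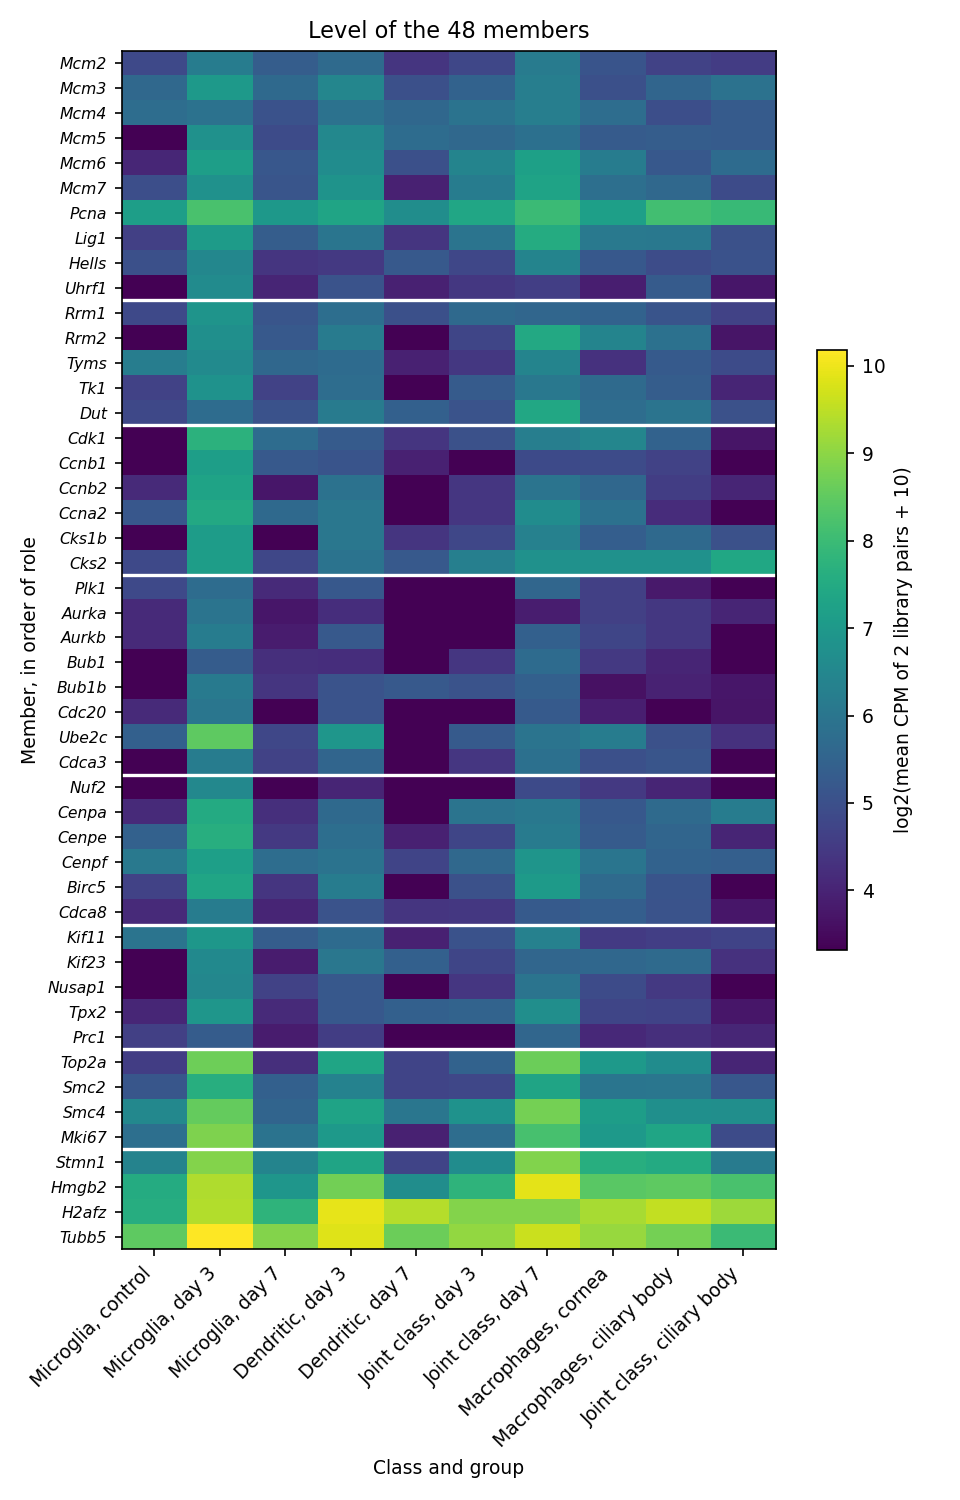
Level of each of the 48 genes (rows, in order of role, white lines between roles) in 10 classes (columns), as log2 of the mean CPM of 2 library pairs plus 10. Day 3 microglia are bright at Top2a, with 448 and 339 CPM, and Cdk1 is dark in control microglia, where it had no transcript.

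By day 7 the microglial levels had fallen again. The comparison of day 7 with day 3 shares the day 3 libraries with the one above, and in it 18 of the 24 tested genes fell and none rose (4.96% of all genes tested fell). Top2a fell to 2 transcripts at day 7, a ratio of day 3 to day 7 of 50.04 (13.6 to 418, adjusted p = 1.63e-05). Ube2c fell by 4.41 ± 0.61 on the log2 scale (adjusted p = 0.000103), Smc4 by 3.20 ± 0.48 (adjusted p = 0.000224) and Stmn1 by 2.67 ± 0.37 (adjusted p = 9.33e-05). Cdk1 fell by 2.19 ± 0.50 (adjusted p = 0.0083) from its day 3 level. Mki67 differed by -3.18 ± 0.94 and Pcna by -1.28 ± 0.50, and neither passed (adjusted p = 0.108 and 0.114). Under DESeq2, 7 genes fell.

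Between day 7 and control 0 of the 24 were called by edgeR and 0 by DESeq2, where 1.82% of all genes tested changed in edgeR. At an unadjusted p under 0.05 in edgeR there were 2 of the 24, beside 484 of all 3408 genes tested. Cdk1 was at 26.0 and 61.9 CPM at day 7 against none in control, and Mcm6 at 26.0 and 26.5 against 0 and 13.6. Tubb5 was at 436 and 504 CPM at day 7 against 352 and 339.8 in control. A missed threshold does not show equal levels.

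Photoreceptor and Mueller glia markers moved the opposite way to the cycle genes in microglia. All 8 photoreceptor markers were seen in each group, and their sum was 0.387% to 0.767% of transcripts in control, 0.161% to 0.286% at day 3 and 0.739% to 0.909% at day 7. The 4 Mueller glia markers summed to 0.109% to 0.124%, 0.0338% to 0.0682% and 0.112% to 0.119%. Microglia markers summed to 2.40% to 2.59% in control, 1.47% to 1.75% at day 3 and 1.85% to 1.93% at day 7. Their part in the result was not tested.

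The balance of S-phase to mitotic transcripts was lowest in day 3 microglia. There the 10 core S-phase genes gave 162 transcripts in P1 and 177 in P2, and the 29 mitotic genes 592 and 667, a ratio of 0.274 and 0.265. In control microglia the counts were 30 and 35 against 42 and 50 (ratios 0.714 and 0.700), and 52 and 46 at day 7 against 51 and 70 (1.02 and 0.657). Dendritic cells at day 3 had 136 and 292 against 310 and 402 (0.439 and 0.726), and the day 7 joint class 92 and 65 against 167 and 191 (0.551 and 0.340). Corneal macrophages stood at 0.758 in P2 and 0.290 in P5, and ciliary body macrophages at 0.633 and 0.502. Photoreceptor wells were at 0.587 and 0.578. The share of S-phase genes among all transcripts of microglia was 0.0349% ± 0.0157 in control, 0.115% ± 0.0473 at day 3 and 0.0373% ± 0.0049 at day 7 (SD, n = 2), beside 0.0492% ± 0.0215, 0.423% ± 0.166 and 0.0476% ± 0.0203 for mitotic transcripts.

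Dendritic cells of the lesioned retina were compared with microglia of the same library pairs. At day 3, of 31 genes tested 11 were lower in dendritic cells (11.3% of all genes tested were) and 1 was higher (12.2% were). Mki67 was at 166 and 71.1 CPM in dendritic cells against 685 and 215 in microglia (log2 -1.75 ± 0.40, adjusted p = 0.0013), Cdk1 at 32.0 and 25.9 against 247 and 156 (-2.63 ± 0.53, adjusted p = 0.000267) and Cenpa at 44.8 and 36.6 against 219 and 128 (-1.91 ± 0.54, adjusted p = 0.00813). The 11 were Stmn1 and 10 of the 17 mitotic genes tested. The other 7 (Ccnb2, Cks1b, Cks2, Birc5, Kif11, Kif23 and Tpx2) did not pass, and 12 mitotic genes were not tested. The gene that was higher was H2afz, at 966 and 974 against 739.7 and 568 CPM (0.69 ± 0.23, adjusted p = 0.0306).

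No core S-phase gene passed in that comparison. Mcm6 was at 95.9 and 84.0 CPM in dendritic cells against 137 and 128, Rrm2 at 57.6 and 66.8 against 128 and 64.1 (-0.38 ± 0.54, adjusted p = 0.69) and Pcna at 173 and 129 against 384 and 188 (-0.74 ± 0.33, adjusted p = 0.108). Whether S-phase and mitotic genes differed in their change was not tested. The count of lower genes was 6 without pair P1 of day 3, 4 without pair P2, and 2 under DESeq2.

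In dendritic cells no gene was called between the days, on few cells. Most values lay lower at day 7. Of 31 genes tested, 2 had a log2 change above 0, and the median was -1.81, against -0.0419 for all genes tested. Top2a was at 211 and 97.0 CPM at day 3 against 11.0 and 22.0 at day 7, Mki67 at 166 and 71.1 against 11.0 and 0, and Stmn1 at 173 and 129 against 11.0 and 22.0. Hells, a chromatin remodeler of replicating cells, lay the other way, at 6.4 and 17.2 CPM at day 3 against 33.0 and 22.0 at day 7, on 9 and 4 transcripts. At day 7, with 16 and 10 wells in the pairs, 16 of the 48 genes had no transcript at all, among them Rrm2, Ccna2, Ube2c, Birc5 and Cenpa. None of 31 genes passed edgeR's test, and none passed under DESeq2 (0.167% of all genes tested changed in edgeR). At an unadjusted p under 0.05 in edgeR there were 12 of the 31, beside 302 of all 3586 genes tested. Without pair P2 of day 3, 5 were lower. Against day 7 microglia, which share their libraries with that comparison, H2afz alone of 31 was higher, at 671 and 681 against 215 and 204 CPM (1.72 ± 0.30, adjusted p = 5.00e-05, 11.2% of all genes tested were higher).

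In the joint class some cycle genes rose between the days over which they fell in microglia. Of 31 tested 5 rose, standing higher at day 7 than at day 3 (0.669% of all genes tested were). Top2a went from 35.2 and 33.6 CPM to 198 and 572 (3.30 ± 0.70, adjusted p = 0.0115). Rrm2 went from 11.7 and 22.4 to 198 and 133 CPM, on 3 transcripts at day 3, a ratio of 10.3 (3.18 to 52.8, adjusted p = 0.0253). Stmn1 went from 82.1 and 101 to 349 and 572 CPM (2.25 ± 0.44, adjusted p = 0.00557), Hmgb2 from 141 and 280.0 to 529 and 1372 (2.09 ± 0.52, adjusted p = 0.0497) and Smc4 from 93.9 and 112 to 302 and 534 (1.93 ± 0.51, adjusted p = 0.0476). The pairs of these 5 did not overlap between days. Mki67 was at 11.7 and 78.4 against 85.0 and 476 CPM (2.36 ± 1.53, adjusted p = 0.527), and Pcna at 176 and 134 against 169.9 and 324 CPM.

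The count of 5 was 2 without pair P1 of day 3 and 2 without pair P2 of day 7, 3 without pair P2 of day 3, 3 under DESeq2, and 0 with single libraries as replicates. Few wells carried most of the mitotic part: the 3 day 7 wells with at least 5 mitotic genes held 81.3% of the mitotic transcripts of the class, at a median depth of 8333 transcripts against 2850 in the other 38. Outside them the 48 genes were 0.244% of transcripts at day 7, against 0.257% at day 3, where no well was left out. The 3 wells were chosen by their mitotic genes, which raises the 81.3% and lowers the 0.244%. Without thinning, 4 day 3 wells also reached the limit, so the 2 values are no like comparison of the days.

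The joint class also held different cells on the 2 days. The signature annotation named 32 of 41 wells lymphocytes at day 7 and 15 of 46 at day 3, and all 3 mitotic wells were among the 32. Of 7 T cell markers 6 were seen on each day, with Trbc2 at 0, and their sum was 0.00469% to 0.0325% of transcripts at day 3 and 0.131% to 0.223% at day 7. Signature monocytes were 11 wells at day 3 and 2 at day 7, but the 5 monocyte markers overlapped, at 0.249% to 0.478% and 0.360% to 0.4125%. In the 3 mitotic wells the median was 0.294% for monocyte markers and 0.249% for T cell markers, against 0.254% and 0.131% in the other 38. The 48 genes were 0.781% of transcripts in the signature lymphocytes of day 7 and 0.309% in those of day 3. Photoreceptor markers (8 of 8 seen) summed to 0.0845% to 0.272% at day 3 and 0.577% to 0.596% at day 7. The part of these shifts in the result was not tested.

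The change from day 3 to day 7 differed between the joint class and microglia for 15 of 31 genes, each higher in the joint class, in a test of the difference itself (1.39% of all genes tested were higher in it). The differences on the log2 scale were 8.79 ± 0.85 for Top2a (with 2 microglial transcripts at day 7, adjusted p = 2.34e-08), 4.84 ± 0.56 for Stmn1 (adjusted p = 1.13e-06), 4.99 ± 0.74 for Smc4 (adjusted p = 0.000121) and 5.39 ± 0.85 for Mki67 (adjusted p = 0.000337). Among replication genes Rrm2 (4.84 ± 1.10, adjusted p = 0.00775) and Lig1 (3.59 ± 0.87, adjusted p = 0.0147) passed, and Mcm6 did not (2.87 ± 0.91, adjusted p = 0.0774). The count ranged from 13 to 14 when 1 pair was left out. For dendritic cells against microglia 0 of 31 passed (0.335% of all genes tested changed, in either direction). At an unadjusted p under 0.05 in this edgeR test there were 4 of the 31, beside 339 of all 3586 genes tested.

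**Figure D4:**
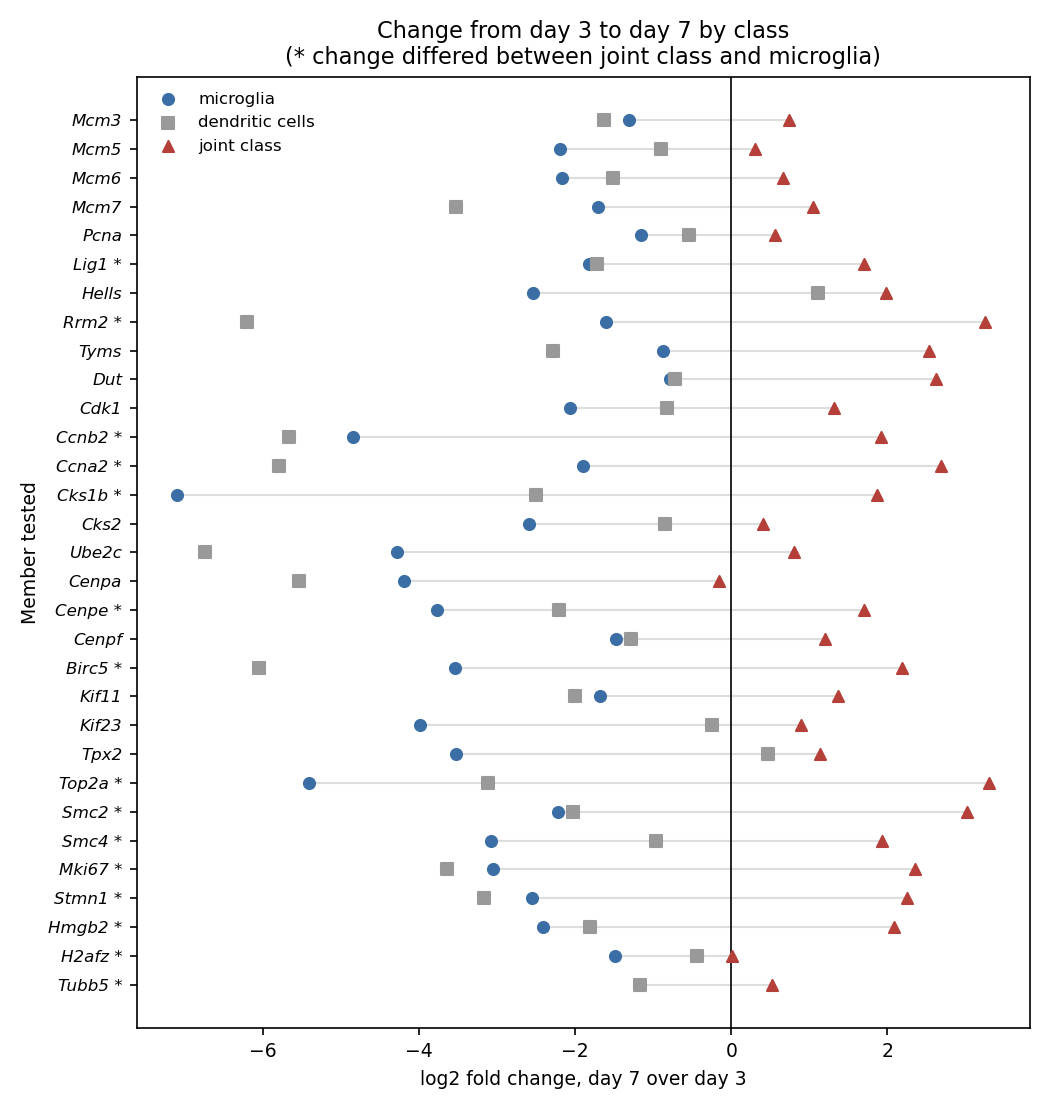
Fitted log2 fold change of day 7 over day 3 (horizontal axis) for the 31 genes tested (rows) in microglia (circles), dendritic cells (squares) and the joint class (triangles); an asterisk marks a change that differed between joint class and microglia. Top2a stands at -5.40 in microglia (on 2 transcripts at day 7) and 3.30 in the joint class, and values of genes with no transcript on 1 day, such as Rrm2 and Birc5 in dendritic cells and Cks1b in microglia, are fitted values and no measured fold.

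The joint class was also set against microglia of the same library pairs. At day 3, 14 of 31 genes were lower in it and none higher (8.2% of all genes tested were lower), led by Top2a at 35.2 and 33.6 against 448 and 339 CPM (-3.53 ± 0.52, adjusted p = 4.47e-06) and Mki67 at 11.7 and 78.4 against 685 and 215 (-3.12 ± 0.57, adjusted p = 0.000211). Without pair P1 of day 3 the count was 5. At day 7, 14 of 31 were higher and none lower (11.2% of all genes tested were higher), among them Top2a (51 against 2 transcripts, ratio 42.9, 11.3 to 364, adjusted p = 2.52e-07), Rrm2 (2.48 ± 0.70, adjusted p = 0.00792), Lig1 (2.32 ± 0.63, adjusted p = 0.00587), Dut (2.49 ± 0.82, adjusted p = 0.0224) and Mcm6 (1.98 ± 0.71, adjusted p = 0.0365). Mki67 was higher at 85.0 and 476 against 13 and 88.5 CPM (2.27 ± 0.62, adjusted p = 0.00733), and its pairs overlapped. Under DESeq2 the counts were 8 and 6.

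Macrophages of the unlesioned eye front were compared with control microglia, which both comparisons share. The tissue and the library pairs differ together here, except that cornea and retina each have a P2. In corneal macrophages 7 of 15 genes tested were higher and none lower (16.4% of all genes tested were higher), and in those of the ciliary body 8 of 15 (15.4%). H2afz was at 511 and 709 CPM in the cornea, 735 and 746 in the ciliary body and 216 and 165 in microglia (1.95 ± 0.33, adjusted p = 0.000248, and 2.26 ± 0.33, adjusted p = 5.37e-05). Rrm2 had no transcript in microglia, 64.5 and 87.4 CPM in the cornea (at least 5.34-fold higher) and 38.5 and 59.6 in the ciliary body (at least 3.59-fold). Top2a was at 79.4 and 155 CPM, 84.6 and 98.4 CPM, and 0 and 27.5 CPM in the 3 tissues (2.84 ± 0.70 in the cornea and 2.52 ± 0.70 in the ciliary body). Pcna passed in the ciliary body, at 308 and 225 against 185 and 82.4 CPM (1.40 ± 0.43, adjusted p = 0.0224), and not in the cornea, at 134 and 136 CPM (0.38 ± 0.45, adjusted p = 0.561).

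Mki67 was at 64.5 and 170.0 CPM in the cornea (1.52 ± 0.61, adjusted p = 0.0668) and at 127 and 181 CPM in the ciliary body, where it passed (1.95 ± 0.58, adjusted p = 0.0172). Cks2, Hmgb2 and Stmn1 were higher in both tissues, and Mcm6 in the cornea. Without control pair P2 the counts were 3 for the cornea and 2 for the ciliary body, without cornea pair P5 it was 3, and under DESeq2 they were 4 and 3. Compared with each other, the macrophages of the 2 tissues had 0 of 15 genes called by edgeR and 0 by DESeq2 (2.65% of all genes tested changed in edgeR). At an unadjusted p under 0.05 in edgeR there was 1 of the 15, beside 649 of all 4832 genes tested. Corneal macrophages also held 4 of 4 corneal epithelium markers, at 1.23% to 1.57% of transcripts, against at most 0.135% in the ciliary body, and the part of that RNA in these levels was not tested.

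Within the ciliary body, the joint class was lower than the macrophages for 3 of 15 genes and higher for none (2.26% of all genes tested were lower). Top2a was at 6.7 and 6.2 CPM in the joint class, 2 transcripts, against 84.6 and 98.4 CPM (-3.88 ± 0.78, ratio of macrophages to joint class 14.4, 3.82 to 122, adjusted p = 0.00552). Mki67 was at 33.4 and 6.2 against 127 and 181 CPM (-3.13 ± 0.62, adjusted p = 0.00558), and Rrm2, with 1 transcript in the joint class, was lower by a ratio of 15.9 (2.65 to 645, adjusted p = 0.037). Pcna overlapped at 314 and 162 against 308 and 225 CPM. Without pair P3 the count was 1 and without P4 it was 0.

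A list of 45 other cell cycle genes, regulators of G1 and replication factors mostly, was read beside the 48. In microglia from control to day 3, 10 were tested, 1 rose (11.9% of all genes tested did) and 1 fell (10.5% did), shares near the background. Cdkn2c, an inhibitor of the G1 kinases, rose from 0 and 27.2 to 110 and 96.2 CPM (2.45 ± 0.84, adjusted p = 0.0346), and Btg2, an antiproliferative gene, fell from 276 and 408 to 101 and 119 CPM (-1.62 ± 0.36, adjusted p = 0.00246). From day 3 to day 7, 1 of 10 fell (4.96% of all genes tested did), the G1 cyclin Ccnd1, from 210.0 and 142 to 26.0 and 17.7 CPM (-2.87 ± 0.54, adjusted p = 0.00154).

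Between classes a G1 cyclin set microglia apart. Ccnd2 was at 9.1 and 18.3 CPM in day 3 microglia, 428 and 508 in dendritic cells (4.95 ± 0.50, adjusted p = 4.02e-09) and 798 and 470.5 in the joint class (5.23 ± 0.52, adjusted p = 8.45e-09). In the macrophages it was at 501 and 486 CPM in the cornea and 373 and 505 in the ciliary body, against 15.4 and 6.9, which is 2 transcripts, in control microglia (adjusted p = 2.80e-07 and 5.15e-07). Cdkn1a, which encodes the Cdk inhibitor p21, was at 1499 and 1860 CPM in corneal and 1181 and 2131 CPM in ciliary body macrophages against 77.0 and 109.9 in control microglia (4.32 ± 0.37, adjusted p = 1.78e-07, and 4.33 ± 0.37, adjusted p = 2.45e-07). Btg1 and Btg2 were higher in both as well. Of the 14 genes of this list tested there, 5 were higher in each tissue (16.4% of all genes tested in the cornea and 15.4% in the ciliary body) and none lower. At day 3, Ccnd3 was higher and Cdk6 lower in dendritic cells than in microglia (2.51 ± 0.79 and -1.75 ± 0.45), and 3 of 13 genes were higher and 1 lower (12.2% and 11.3% of all genes tested).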

How the data were processed

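The authors deposited estimated counts, unnormalized transcript numbers derived from molecular identifiers and not always whole. Reads were aligned with BWA 0.6.2-r126, per the submitters' processing notes; the sources used here give no genome build, annotation or strand setting. The 48 genes, the role and marker lists and the tests were chosen with earlier results of these data known. Wells were matched to libraries by equal values and classes taken from the deposited annotation; the tables of annotated wells hold no mitochondrial genes, which stay out of all totals. Estimated counts were summed per class and library pair and rounded. CPM scales a sum to 1000000.

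Sums were tested with edgeR 4.0.16 in R 4.3.3 (filterByExpr, TMM, robust quasi-likelihood fit, Benjamini-Hochberg adjustment over all genes tested, threshold 0.05); an SE is the unshrunk log2 value divided by the root of F. The fits covered 6 sums of microglia over 3 groups, 12 sums of 3 classes at 2 days (with pair within day as a term for contrasts between classes, and for the difference between changes, which was added after the other fits were seen) and 8 sums of unlesioned tissue. Folds against a group without transcripts are lower bounds at 3 counts over the group, and groups of 1 to 3 counts carry an exact 95% counting interval. Wells were thinned with a fixed seed to 1000 transcripts and a limit of 5 mitotic genes was used. No doublets were called. Described with values are Mki67, Top2a, Pcna, Stmn1, the 3 genes of highest mean CPM in each role, and any called against its comparison's majority; Mcm5, Ccnb1, Ccnb2 and Cks1b were added after their values were seen. Of the 45 other cycle genes, up to 4 with the smallest adjusted p in a comparison are named. Alternatives were DESeq2 1.42.0, no filter on low counts, single libraries as replicates, wells of at least 1000 transcripts and at most 25% mitochondrial transcripts, 1 pair left out, and the pair as a block. The fit was tested on simulated data.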

Additional observations from a re-analysis of the deposited data

Results flagged for a closer look

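In control microglia, replicate 1 of the 4 libraries lay apart from the others. The 48 cell cycle genes were 0.287% of its transcripts (17 wells), against 0.121%, 0.126% and 0.146% in the other libraries, and 5.88% of its wells held at least 5 mitotic genes, against 0% in each of the others, which is 1 well. Among the wells used for the comparison with cornea and ciliary body the same library stood at 0.274% (18 wells; the others at 0.127%, 0.131% and 0.143%) and 5.56%. In day 7 microglia, replicate 4 of the 4 libraries had 9.09% of 22 wells at or above the limit, 2 wells, against 0% in each of the others. For the share of transcripts, a library this far from the rest of its group occurs by chance in about 1 in 20 groups. For the share of wells, a single library with any such well always stands apart in this way, so that rate does not apply there.

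The change from day 3 to day 7 differed between the joint class and microglia for 15 genes in edgeR's test of the difference. Of these the ones named by the rule differed by 8.79 (Top2a), 5.72 (Birc5), 5.39 (Mki67), 4.99 (Smc4), 4.84 (Stmn1), 4.84 (Rrm2), 4.70 (Ccna2), 4.39 (Hmgb2), 3.59 (Lig1), 1.73 (Tubb5) and 1.53 (H2afz) on the log2 scale, each higher in the joint class. The 2 classes come from the same libraries, and the make-up of the joint class differed between the days.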

How the results depend on the processing

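The counts of genes called moved as follows. DESeq2 gave 7 for microglia at day 7 against day 3, 3 for the joint class between days, 2 and 8 for dendritic cells and the joint class against microglia at day 3, 6 for the joint class against microglia at day 7, 4 and 3 for macrophages of cornea and ciliary body, and 1 within the ciliary body. Without the filter on low counts, 32 rose in microglia at day 3, 5 fell in dendritic cells from day 3 to day 7, and 14 and 14 were higher in macrophages of cornea and ciliary body. With single libraries as replicates the counts were 8 (microglia, day 3 against control), 8 (day 7 against day 3), 0 (joint class between days), 5 and 9 (dendritic cells and joint class against microglia at day 3), 7 (joint class at day 7), 2 and 3 (macrophages) and 0 (within the ciliary body). With all genes of the library tables, chosen after seeing the data, the joint class had 3 between days. Leaving out 1 pair gave 13 to 31 for microglia at day 3, 13 to 21 for their fall by day 7, 0 to 5 for dendritic cells and 2 to 4 for the joint class between days, 4 to 6 and 5 to 13 against microglia at day 3, 1 to 1 and 8 to 10 at day 7, 3 to 10 and 2 to 10 for macrophages of cornea and ciliary body, 0 to 1 between these, and 0 to 1 within the ciliary body. Without the 4 broadly expressed genes the summed share was 0.091%, 0.582% and 0.0935% in microglia (control, day 3, day 7), 0.237% and 0.0621% in dendritic cells, 0.127% and 0.415% in the joint class (day 3, day 7), 0.184% and 0.169% in macrophages and 0.104% in the joint class of the ciliary body. In photoreceptor wells it was 0.0638%. As a mean over wells it was 0.423% in the day 7 joint class, instead of 0.681%, 0.155% in day 7 dendritic cells, 0.288% in ciliary body macrophages and 0.242% in the ciliary body joint class. Unthinned, the wells with 5 or more mitotic genes were 8.70%, 8.26% and 9.91% in the day 3 joint class and in macrophages of cornea and ciliary body. Of 82 calls of named genes 30 were kept under every alternative, and none changed direction. Pair numbers did not pair the retinal groups (correlations over 4036 genes of 0.02, 0.16 and -0.06). In microglia the replicate block gave 21 higher at day 3 against control and 21 lower at day 7 against day 3. It gave 0 and 5 for dendritic cells and joint class between days and 4 within the ciliary body. Without the replicate block, dendritic cells had 6 lower genes at day 3 instead of 11, and the difference between changes 11 instead of 15. Lone pairs were assumed to vary like the rest. Depth limits genes with a few transcripts in a sum.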

Other observations

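Some wells outside the annotation also held at least 5 mitotic genes. Photoreceptor wells had 1 of 125 (0.8%, 0.141% to 4.39%), and that interval overlaps those of the cornea and of day 3. At the same depth of 1000 transcripts, the unannotated wells with at least 5 such genes were 5 of 314 in the cornea (1.59%, Wilson 95% interval 0.682% to 3.67%), all in pair P5 (5 of 201), 4 of 94 at day 3 (4.26%, 1.67% to 10.4%), all in pair P2 (4 of 49), 1 of 143 at day 7, and 0 of 74 in control retina and 0 of 71 in the ciliary body. In the 5 corneal wells the summed corneal epithelium markers had a median of 3.94% of transcripts, against 5.12% in the other unannotated corneal wells. In the 4 wells of day 3 the photoreceptor markers had a median of 1.35% and the microglia markers of 0.316%, against 0.149% and 0.0314% in the other unannotated wells of that day.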
